A study of Mus musculus with 22 samples.

Results

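Primordial germ cells of the mouse (PGCs), from which sperm and eggs descend, were compared between embryonic stage E10.5 (in days), when they arrive at the genital ridges, and E12.5, when they lie in a gonad that has begun to form a testis. The 4 libraries compared, of 22 in the series, were the 2 libraries of E10.5 Tet1-WT PGCs and the 2 libraries of E12.5 male Tet1-WT PGCs. They were taken by the stage, sex and genotype in their labels and by no measured value, though earlier results of these data were known. All 4 came from wild-type littermates of a cross between Tet1 heterozygous parents that both carry GOF18∆PE-EGFP, a green fluorescent reporter driven by a germ cell enhancer of the Oct4 gene (Pou5f1). PGCs were sorted from single embryos. RNA of 2 to 6 embryos of matching genotype, stage and, from E12.5, sex was pooled for each library (the equivalent of 1000 to 8000 cells). Polyadenylated RNA was turned into cDNA that was amplified for 15 cycles. E10.5 embryos were not labelled by sex, because the series separates the sexes only from E12.5. The labels number the libraries and say no more about their independence, so every p-value measures the spread between such pools, which may be partly technical. Further groups were set beside the 4 libraries: E12.5 female Tet1-WT PGCs of the same cross (2 libraries), Tet1-KO PGCs of the same cross at E10.5 and from E12.5 males (2 libraries each), and E10.5 wild-type PGCs from MF1 females mated with GOF18∆PE-EGFP males (2 libraries of 600 to 1000 cells, prepared with another RNA kit). In bulk RNA, fewer cells of a type and less RNA per cell cannot be told apart.

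PGCs migrate from the hindgut to the genital ridges and, around their arrival, lose most of the cytosine methylation in their genome. A group of germ cell genes whose CpG-rich promoters are methylated and silent in other cells is then switched on, among them Dazl, Ddx4 and Mael, together with genes for meiotic chromosomes and for the piRNA pathway, the small RNA system that silences transposons. In a testis, germ cells are held back from meiosis and pass through a period of Nodal signalling, while in an ovary retinoic acid and BMP signals take them into meiosis.

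The E10.5 libraries held 16499206 and 18375243 counted reads and the E12.5 male libraries 15298200 and 15261276. Levels are given in CPM, each gene's count relative to its scaled library total. Log CPM correlated across genes at 0.939 between the E10.5 libraries and at 0.956 between the E12.5 male libraries; genes are not independent replicates. Within each pair the counts differed by more than sampling noise, with a chi-square per degree of freedom of 34.4 at E10.5 and 23.7 at E12.5. Tet1, the dioxygenase gene targeted in the cross, was at 134 and 76.8 CPM in the E10.5 Tet1-WT libraries and at 178 and 309 CPM in the E12.5 male Tet1-WT libraries. The Tet1-KO libraries still held 44.5 and 102 CPM at E10.5 and 79.3 and 84.4 CPM in E12.5 males, so this gene-level count does not check the genotype label. Sex-linked RNA followed the labels: Xist, the RNA that coats the inactive X chromosome, was at 70.2 and 75.5 CPM in the unsexed E10.5 libraries and at 0 and 0.125 CPM in the E12.5 male libraries, and the Y-linked Eif2s3y was at 28.6 and 49 CPM and at 169 and 166 CPM. Both E10.5 libraries therefore held Xist as well as Y-linked RNA, although reads of Xist and its antisense partner Tsix could not be told apart without the strand.

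Of 17567 genes with enough reads to test, 1660 (9.45%) were called, that is, had an adjusted p under 0.05 in the quasi-likelihood test of edgeR after adjustment by the Benjamini-Hochberg method, 1124 higher (6.4%) and 536 lower (3.05%) at E12.5. These shares are the background for every list count of this comparison below. Among the higher genes 411 differed by at least 4-fold and 265 by at least 8-fold, while among the lower genes 91 and 30 did. In 102 of the higher genes both E10.5 libraries held no read, and in 8 of the lower genes both E12.5 libraries held none. Across all tested genes the libraries of the 2 stages did not overlap in 9707 (55.3%), in either direction, so that separation of the libraries alone is common here. All 1124 genes called higher and all 536 called lower were among them, so separation adds nothing to a call. The number of calls depended on single libraries: it was 978 without E10.5 replicate 1, 739 without E10.5 replicate 2, 1078 without E12.5 male replicate 1 and 486 without E12.5 male replicate 2.

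**Figure D1:**
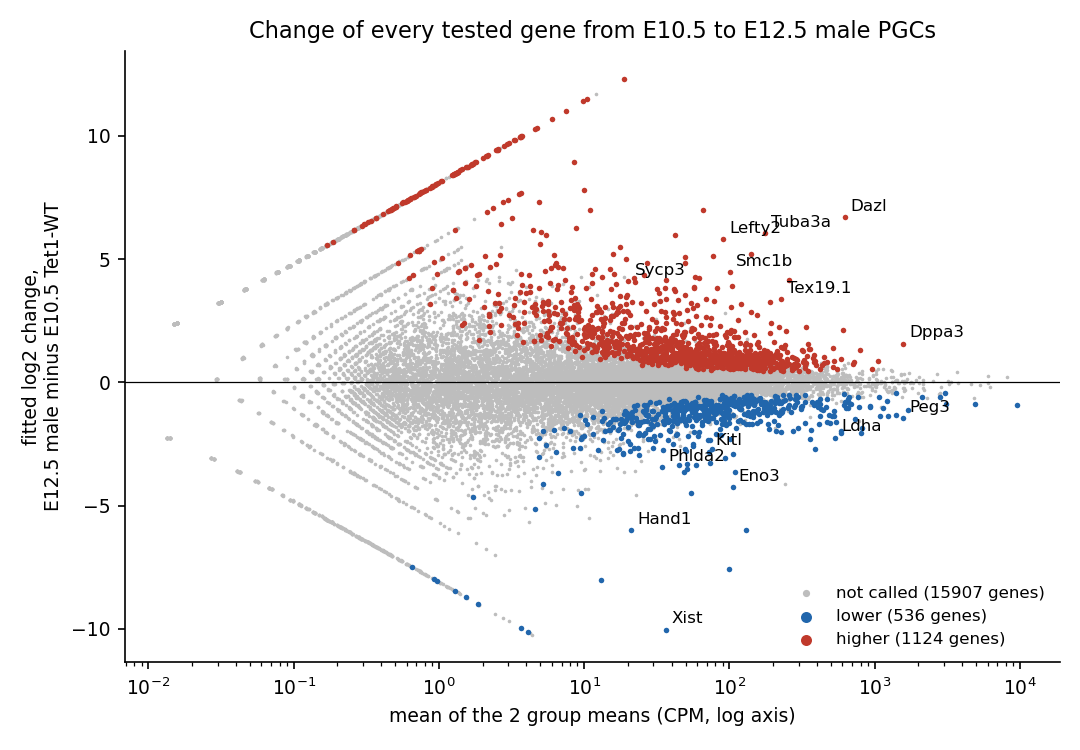
Each point is 1 of 17567 tested genes, with the mean of both group means in CPM on the horizontal log axis and the fitted log2 change from E10.5 to E12.5 male PGCs on the vertical axis. Red points are the 1124 genes called higher, blue points the 536 called lower and grey points the rest; the diagonal lines at the edges are genes with no read in one group, whose fitted change depends on the prior count.

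The largest rises among the more abundant genes included several with no read at E10.5. Ly6g6e went from 0 CPM in both E10.5 libraries to 7.92 and 10.9 CPM, at least 56.8-fold higher (edgeR adjusted p = 0.00154). Camk2b, a calcium-dependent kinase subunit, went from 0 to 7.86 and 6.77 CPM, at least 44.1-fold higher (edgeR adjusted p = 3.03e-05). Among the largest falls were Hand1, a transcription factor of lateral mesoderm and heart, which fell from 49.3 and 33.7 CPM to 1.03 and 0.251 CPM (log2 change −6.00 ± 0.92 SE, edgeR adjusted p = 0.00118), and Eno3, an enolase best known from muscle, which fell from 182 and 219 CPM to 12.7 and 8.4 CPM (log2 change −4.24 ± 0.40 SE, edgeR adjusted p = 9.59e-06). Hand1 was at 0.018 and 0 CPM in the E10.5 MF1 libraries, where Eno3 was at 6.67 and 25.9 CPM, so these E10.5 levels were not shared by the other wild-type cross. Nor were the rises called against those libraries: 1 of them held Ly6g6e at 3.37 CPM (log2 change 2.45, edgeR adjusted p = 0.258) and Camk2b at 6.03 CPM (1.19, 0.39).

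The germ cell genes known to be held silent by promoter methylation rose almost throughout. Of 29 such genes, all of them tested, 23 were called higher and 0 lower, against 6.4% and 3.05% of all genes, with a median log2 change of 3.77 (3.56 with genes at 0 set to their bound) where the median of all genes was 0.02. At an unadjusted p under 0.05 the counts were 26 and 0, DESeq2 called 24 and 0, and limma's voom 22 and 0. The list was chosen with earlier results of these data known, so these counts are a description and no independent test. The promoters of the 4 called members with the smallest p and an entry in the RefSeq promoter table (GRCm38.p6) are shown because promoter CpGs are what the list is known for. Each run is the 250 bases before the first listed start, 5′ to 3′ on the gene's strand, and capitals mark matches to CACGTG or TCCCGC on either strand, so that GCGGGA is a TCCCGC match on the other strand.
Tuba3a, chr6:125286082-125286331, minus strand: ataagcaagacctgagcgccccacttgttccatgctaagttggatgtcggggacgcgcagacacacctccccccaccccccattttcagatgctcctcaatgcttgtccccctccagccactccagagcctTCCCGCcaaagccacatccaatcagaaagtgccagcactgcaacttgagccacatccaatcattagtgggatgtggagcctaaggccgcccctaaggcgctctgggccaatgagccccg
Tex19.1, chr11:121145893-121146142, plus strand: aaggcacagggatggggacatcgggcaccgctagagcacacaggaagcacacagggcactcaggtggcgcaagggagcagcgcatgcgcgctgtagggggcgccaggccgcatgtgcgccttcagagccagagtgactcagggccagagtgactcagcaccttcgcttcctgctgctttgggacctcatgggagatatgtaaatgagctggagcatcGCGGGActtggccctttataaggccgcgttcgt
Smc1b, chr15:85131958-85132207, minus strand: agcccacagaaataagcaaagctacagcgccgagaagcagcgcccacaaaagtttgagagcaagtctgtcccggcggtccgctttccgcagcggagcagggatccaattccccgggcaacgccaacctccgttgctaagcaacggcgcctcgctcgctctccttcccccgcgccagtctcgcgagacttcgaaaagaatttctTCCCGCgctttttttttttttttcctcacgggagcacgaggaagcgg
Asz1, chr6:18109062-18109311, minus strand: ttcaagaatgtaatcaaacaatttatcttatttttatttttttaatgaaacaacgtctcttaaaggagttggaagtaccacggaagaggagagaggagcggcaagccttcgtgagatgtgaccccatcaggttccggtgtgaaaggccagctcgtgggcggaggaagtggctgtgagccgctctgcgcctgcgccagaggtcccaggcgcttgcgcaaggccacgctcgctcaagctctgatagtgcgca
These runs hold 8, 15, 25 and 15 CG dinucleotides. Of the 29 genes 26 had an entry, with 7 to 31 CG and a median of 15 per 250 bases, the same median as in the promoters of 11861 tested protein-coding genes. CACGTG, the palindromic E-box that MAX and MYC family proteins bind, was in 13 of the 26 (50%), in 8.22% of the tested protein-coding genes and in 6.05% of all 27025 promoters of the table. TCCCGC, a core of E2F6 and other E2F sites, was in 10 of the 26 (38.5%), in 28.9% of the tested protein-coding genes and in 16.9% of all promoters, and 4 members held both. Dazl held no CACGTG, while Ddx4, Mael, Sycp1 and Stag3 held it. A match describes the letters of this window and shows neither binding nor methylation, which were not measured in these libraries.

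Dazl, an RNA-binding protein that licenses germ cells for gametogenesis, was at 4.58 and 18.9 CPM at E10.5 and at 1050 and 1400 CPM at E12.5, a log2 change of 6.71 ± 0.52 SE (edgeR adjusted p = 1.30e-06). Ddx4, the germ cell RNA helicase also called Vasa, was at 11.6 and 42.1 CPM and then at 408 and 562 CPM (log2 change 4.17 ± 0.39 SE, edgeR adjusted p = 9.92e-06). Mael, a piRNA pathway protein, was at 3.16 and 1.84 CPM and then at 38 and 47.2 CPM (log2 change 4.09 ± 0.74 SE, edgeR adjusted p = 0.00261). In each of the 3 genes, as in every gene called higher, both E12.5 libraries lay above both E10.5 libraries. The E10.5 libraries of Dazl and Ddx4 differed several-fold from each other.

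The smallest p-values of the list belonged to genes with close replicates. Tuba3a, a testis alpha-tubulin, was at 4.91 and 5.35 CPM at E10.5 and at 321 and 370 CPM at E12.5 (log2 change 6.07 ± 0.33 SE, edgeR adjusted p = 6.16e-08), though reads of its near-identical copy Tuba3b could be split between the pair. Tex19.1, a mammal-specific gene that restrains retrotransposons in germ cells and placenta, was at 37.1 and 42.7 CPM and then at 371 and 452 CPM (log2 change 3.37 ± 0.19 SE, edgeR adjusted p = 6.45e-08). Smc1b, the meiosis-specific cohesin subunit, was at 5.71 and 11.7 CPM and then at 170 and 216 CPM (log2 change 4.47 ± 0.29 SE, edgeR adjusted p = 3.96e-07). The Smc1b promoter printed above is the most CpG-rich of the 4, and that of Tuba3a, which rose more, the least. Stk31, Slc25a31, Rpl10l, Hormad1 and Fkbp6 rose as well, by log2 changes between 3.25 and 5.19.

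Not every member rose: Sycp2 (1.98 and 2.38 CPM, then 10.8 and 6.96 CPM, edgeR adjusted p = 0.0825) and Gtsf1 (0.452 and 0.648 CPM, then 2.18 and 3.82 CPM, edgeR adjusted p = 0.0662) lay higher in both E12.5 libraries without passing the test. D1Pas1, Taf7l, Majin and Dpep3 did not pass either, each at most 5.99 CPM in any of the 4 libraries. In all, both E12.5 libraries lay above both E10.5 libraries in 27 of 29 members, where 55.3% of all tested genes did not overlap in either direction. Leaving out each of the 4 libraries in turn left 20 to 22 members called higher, 20 of them under every omission. Against the E10.5 MF1 libraries 19 of 29 were called higher and 0 lower (median log2 change 2.02), 17 of which were also called against the E10.5 Tet1-WT libraries. Of all 18008 genes in that fit 1589 were called higher and 1308 lower, the background for every list count against MF1 given below. The summed level of the list was 177 and 284 CPM in the E10.5 Tet1-WT libraries, 499 and 428 CPM in the E10.5 Tet1-KO libraries, 949 and 1037 CPM in the E10.5 MF1 libraries, and 3900 and 4925 CPM in the E12.5 male Tet1-WT libraries. All 6 E10.5 libraries therefore lay below the E12.5 libraries, and the Tet1-WT pair lay lowest.

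**Figure D2:**
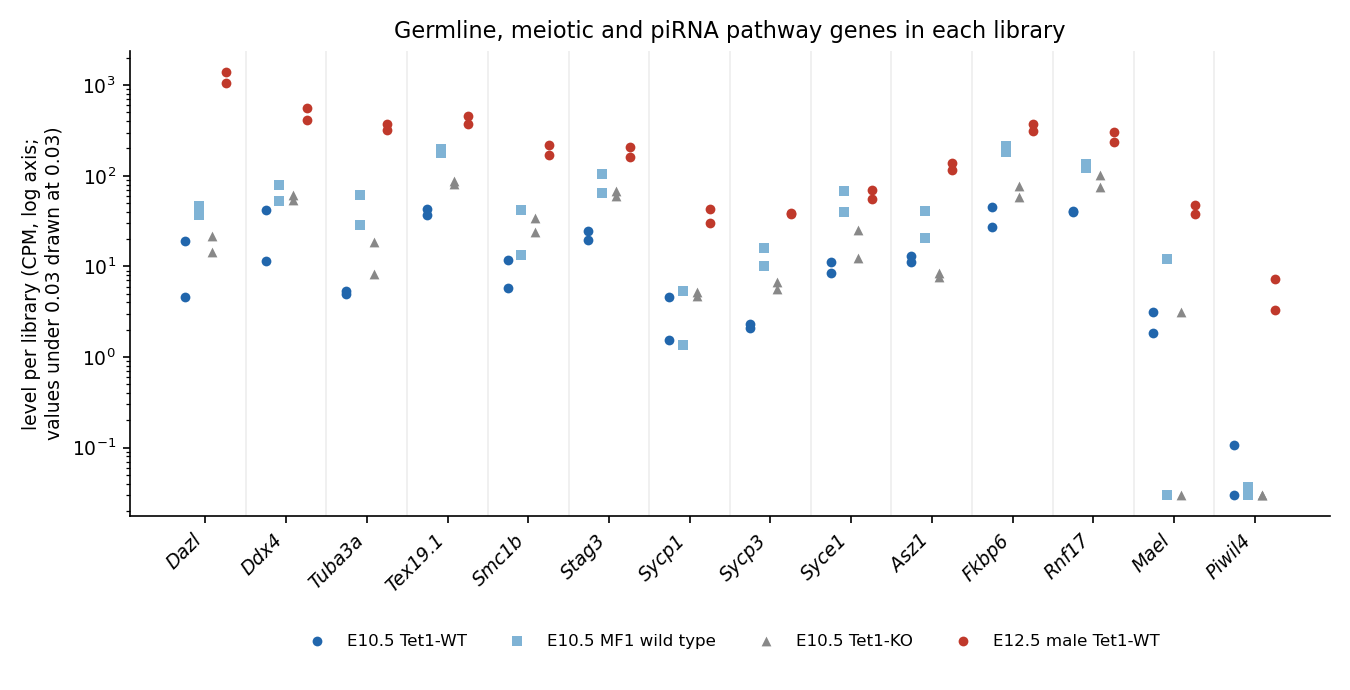
Levels of 14 germline, meiotic and piRNA pathway genes in every library, in CPM on a log axis, for E10.5 Tet1-WT (dark blue), E10.5 MF1 wild type (light blue squares), E10.5 Tet1-KO (grey triangles) and E12.5 male Tet1-WT (red), with 2 libraries each and values under 0.03 CPM drawn at 0.03. Dazl goes from at most 18.9 CPM in the E10.5 Tet1-WT libraries to at least 1050 CPM at E12.5, whereas Syce1 in the MF1 libraries reaches the E12.5 range.

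Genes of the piRNA pathway rose broadly, and some were also on the list above. Of 25 tested, 17 were called higher and 0 lower, with a median log2 change of 3.25 (DESeq2 called 19 and 0, voom 15 and 0, and 20 and 0 had an unadjusted p under 0.05 in edgeR), and their summed level went from 213 and 269 CPM to 2072 and 2626 CPM. Among the PIWI proteins that carry piRNAs, Piwil2 was at 15.5 and 5.83 CPM at E10.5 and at 130 and 176 CPM at E12.5 (log2 change 3.84 ± 0.40 SE, edgeR adjusted p = 2.57e-05). Piwil4, the PIWI protein that acts in the nucleus, was at 0 and 0.108 CPM and then at 3.33 and 7.33 CPM (edgeR adjusted p = 0.000879), and Piwil1, the PIWI protein of later spermatogenesis, was at most 1.5 CPM in any of the 4 libraries and was not called. Among the factors that make or anchor piRNAs, Asz1, a mitochondrial membrane protein, rose from 11.2 and 13.1 CPM to 116 and 138 CPM (log2 change 3.39 ± 0.23 SE, edgeR adjusted p = 6.16e-07). Fkbp6, a co-chaperone, rose from 27.4 and 44.9 CPM to 314 and 375 CPM (log2 change 3.25 ± 0.24 SE, edgeR adjusted p = 9.87e-07). As in every called gene, the libraries of the 2 stages stayed apart in the called genes named here.

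The Tudor-domain scaffolds of the pathway rose with the PIWI proteins. Rnf17 rose from 40.9 and 40.1 CPM to 233 and 302 CPM (log2 change 2.72 ± 0.21 SE, edgeR adjusted p = 1.20e-06). Tdrkh, Tdrd1, Tdrd5, Tdrd7 and Tdrd12 were called higher by log2 changes between 2.29 and 4.86. Against the MF1 libraries Rnf17, Tdrkh and Tdrd1 were called higher as well. Tdrd5 (log2 change −0.40, edgeR adjusted p = 0.535), Tdrd7 (2.03, 0.201) and Tdrd12 (0.39, 0.601) were not called there. Tdrd9, the RNA helicase of the group, was called higher (edgeR adjusted p = 0.0342) but lost the call without E10.5 replicate 2 (0.182), E12.5 male replicate 1 (0.083) or E12.5 male replicate 2 (0.107). Tdrd6 and Dnmt3l, the cofactor of new DNA methylation in later male germ cells, held no read in any of the 4 libraries. Without each library in turn 16 to 18 members were called higher, and against the E10.5 MF1 libraries 12 were.

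Structural genes of meiotic chromosomes rose, while the genes that start meiosis stayed low. Of 37 genes on the meiotic prophase list, 17 were called higher and 0 lower, with a median log2 change of 2.53 (DESeq2 called 17 and 0, voom 16 and 0, and 23 and 1 had an unadjusted p under 0.05 in edgeR). Sycp3, an axis protein of the synaptonemal complex, was at 2.32 and 2.11 CPM at E10.5 and at 37.9 and 38.5 CPM at E12.5 (log2 change 4.11 ± 0.29 SE, edgeR adjusted p = 6.16e-07). Sycp1, the transverse filament of that complex, rose from 1.53 and 4.59 CPM to 30 and 42.7 CPM (log2 change 3.56 ± 0.41 SE, edgeR adjusted p = 6.93e-05). Stag3, a meiotic cohesin subunit, rose from 19.5 and 24.4 CPM to 162 and 207 CPM (log2 change 3.07 ± 0.21 SE, edgeR adjusted p = 6.16e-07), and Syce1, a central element protein, from 8.53 and 11.3 CPM to 55.2 and 70.5 CPM (log2 change 2.66 ± 0.27 SE, edgeR adjusted p = 2.23e-05). Stra8, the gatekeeper of meiotic entry, was at 0 and 0.054 CPM at E10.5 and at 0.726 and 0 CPM at E12.5 and was not called (edgeR adjusted p = 0.393). Gm4969, also called Meiosin, the partner of Stra8 in that step, had no read at E10.5, was at 2.66 and 1.5 CPM at E12.5, at least 12.6-fold higher, and was called (edgeR adjusted p = 0.00124, at most 0.0152 without any 1 library); against the MF1 libraries, at 2.01 and 1.05 CPM, it was not (0.693). Leaving out each library left 13 to 17 members called higher. Against the E10.5 MF1 libraries 12 were called higher and 2 lower, and Syce1, at a log2 change of 0.18, lay at much the same level in both.

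**Figure D3:**
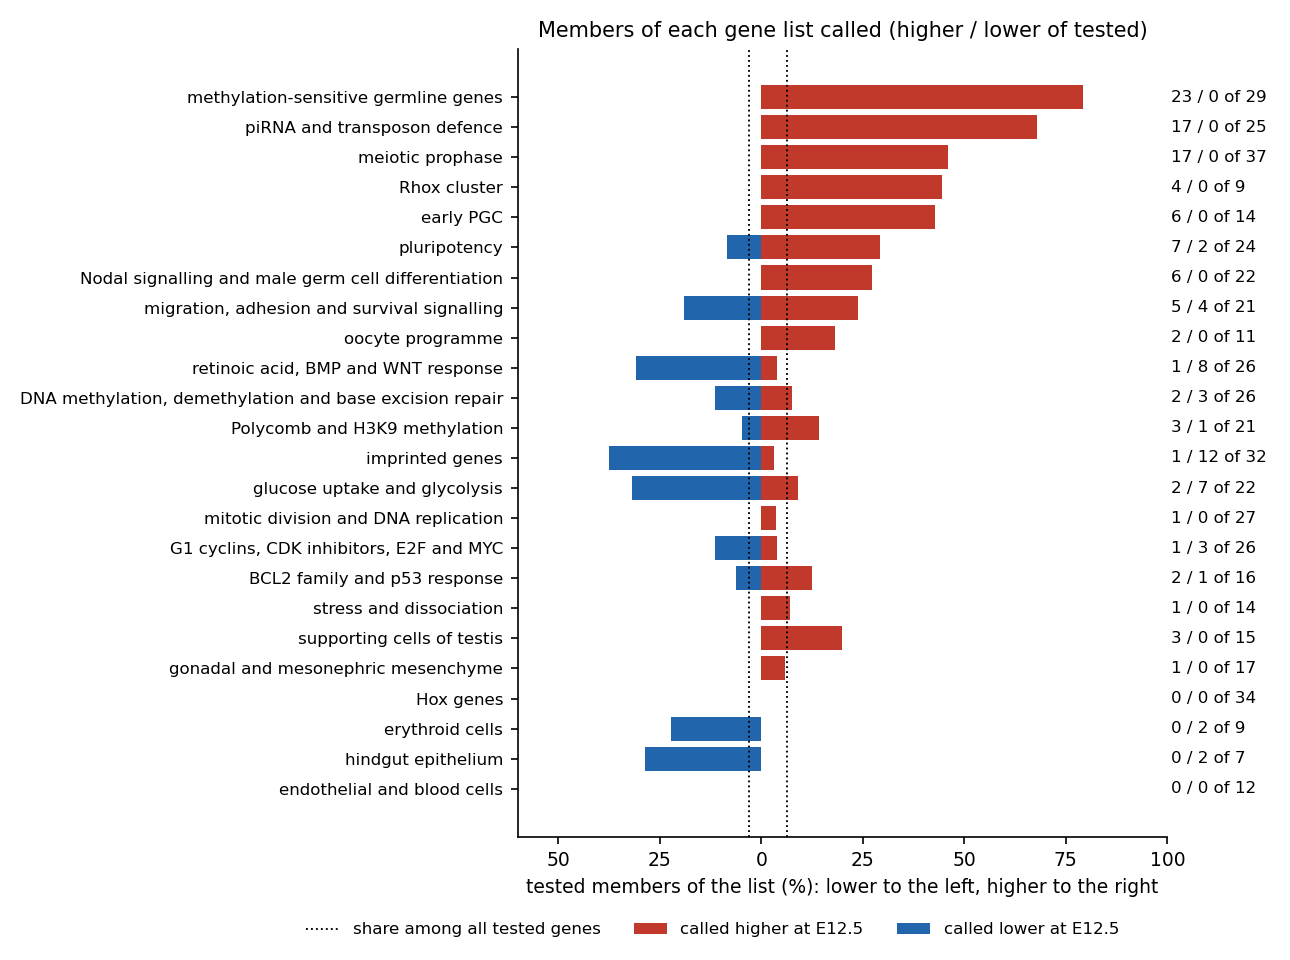
Percentage of the tested members of each gene list called higher (red, to the right) or lower (blue, to the left) at E12.5, with the counts at the right edge. The dotted lines mark the shares among all tested genes, 6.4% higher and 3.05% lower, and the germline, piRNA and meiotic lists stand at the top with 23 of 29, 17 of 25 and 17 of 37 members higher.

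Targets of Nodal signalling rose in the male germ cells. Nodal, the ligand, was at 3.9 and 3.89 CPM at E10.5 and at 19.8 and 34.2 CPM at E12.5, and did not pass the test (log2 change 2.79 ± 1.09 SE, edgeR adjusted p = 0.131). Its feedback inhibitors and direct targets were called: Lefty2 rose from 4.01 and 2.27 CPM to 166 and 187 CPM (log2 change 5.81 ± 0.86 SE, edgeR adjusted p = 0.000578) and Lefty1 from 2.71 and 3.89 CPM to 87.4 and 103 CPM (log2 change 4.84 ± 0.85 SE, edgeR adjusted p = 0.00204). In all 3 genes the E12.5 libraries were both above the E10.5 libraries.

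The co-receptor Tdgf1, also called Cripto, was at 12 and 5.35 CPM and then at 54.5 and 71.4 CPM (log2 change 2.86 ± 0.60 SE, edgeR adjusted p = 0.00725). Foxh1, a transcription factor that works with the SMAD proteins of the pathway, was at 30.6 and 15.4 CPM and then at 60.9 and 80.6 CPM (log2 change 1.62 ± 0.34 SE, edgeR adjusted p = 0.00747). Both calls were lost without E10.5 replicate 2 (0.0897 for Tdgf1 and 0.0983 for Foxh1) or E12.5 male replicate 2 (0.0517 and 0.0795). Neither was called against the MF1 libraries. Tdgf1, at 87.7 and 32.1 CPM there, had a log2 change of 0.05 (edgeR adjusted p = 0.987). Foxh1, at 141 and 120 CPM there, had one of −0.91 (edgeR adjusted p = 0.0742). Lefty1 (2.46, 0.0433) and Lefty2 (3.62, 0.00808) were called higher against MF1 as well. The receptors Acvr2a, Acvr2b and Acvr1b and the signal transducers Smad2 and Smad3 were not called. Nanos2, the RNA-binding protein that commits germ cells to the male path, was at 0 and 0.376 CPM at E12.5 with no read at E10.5, and was not called. Of the 22 genes on the list of Nodal signalling and male differentiation 6 were called higher and 0 lower (8 and 1 in DESeq2, 6 and 2 in voom, and 10 and 2 at an unadjusted p under 0.05 in edgeR), and against the E10.5 MF1 libraries 7 and 2, with 3 called higher in both. The count of higher calls was 3 without E10.5 replicate 2 or E12.5 male replicate 2.

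Several genes of the pluripotency network shared by germ cells and stem cells rose relative to the E10.5 Tet1-WT libraries. Of 25 genes, 24 were tested, 7 were called higher and 2 lower, with a median log2 change of 0.93. Dppa5a, an RNA-binding protein of pluripotent cells, rose from 226 and 224 CPM to 925 and 1050 CPM (log2 change 2.13 ± 0.18 SE, edgeR adjusted p = 4.00e-06), and Tcl1, a coactivator of AKT kinases, rose from 21.1 and 21.7 CPM to 96.5 and 116 CPM (log2 change 2.31 ± 0.23 SE, edgeR adjusted p = 1.55e-05). Dppa2, Dppa4, Utf1 and Zfp42 rose by log2 changes between 1.73 and 2.39. Lin28b, which blocks maturation of let-7 miRNAs, fell from 52.7 and 87.4 CPM to 13.6 and 11 CPM (log2 change −2.51 ± 0.45 SE, edgeR adjusted p = 0.00254).

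The 3 core factors moved less. Pou5f1, whose enhancer drives the sorting reporter, was at 81.6 and 40.9 CPM at E10.5 and at 153 and 154 CPM at E12.5 (log2 change 1.33 ± 0.29 SE, edgeR adjusted p = 0.00832), a call lost without E10.5 replicate 2 (0.0979) or E12.5 male replicate 2 (0.0521). Nanog was at 58.7 and 34.3 CPM and then at 83.6 and 126 CPM (edgeR adjusted p = 0.065), and Sox2 at 29.9 and 15.9 CPM and then at 29.9 and 32.1 CPM (edgeR adjusted p = 0.409), both without a call.

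Early PGC genes rose less firmly. Of 14 on the list 6 were called higher and 0 lower (6 and 1 in DESeq2, 5 and 1 in voom, and 7 and 1 at an unadjusted p under 0.05 in edgeR), but only 1 of the 6, Dppa3, stayed called when each library was left out in turn. Dppa3, also called Stella, a protein that protects methylated DNA in the early embryo, was at 844 and 732 CPM at E10.5 and at 2260 and 2420 CPM at E12.5 (log2 change 1.57 ± 0.26 SE, edgeR adjusted p = 0.00141). The specification factors Prdm1 and Tfap2c were not called (edgeR adjusted p = 0.2 and 0.882). Kit, the receptor for stem cell factor, was at 234 and 173 CPM and then at 424 and 607 CPM (log2 change 1.34 ± 0.39 SE, edgeR adjusted p = 0.0421), and lost its call without E10.5 replicate 1 (0.0942), E10.5 replicate 2 (0.257) or E12.5 male replicate 2 (0.282).

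These rises were not seen against the other E10.5 libraries. Dppa3 was at 2660 and 4660 CPM in the E10.5 MF1 libraries and at 3340 and 2000 CPM in the E10.5 Tet1-KO libraries, a range that holds both E12.5 values. Pou5f1 was at 370 and 318 CPM and at 277 and 171 CPM in those libraries, above both E12.5 male libraries. Against the MF1 libraries 0 of 14 early PGC genes were called higher and 6 lower (median log2 change −1.09), and 2 of 24 pluripotency genes were called higher and 10 lower (median log2 change −0.30). The summed level of the early PGC list was 2275 and 1670 CPM in the E10.5 Tet1-WT libraries, 7385 and 4716 CPM in E10.5 Tet1-KO, 7865 and 9352 CPM in MF1 and 3719 and 4273 CPM at E12.5. The E10.5 Tet1-WT pair therefore held the lowest sums of the 4 groups for this list. Mesenchyme and imprinted genes described further on lay higher in that pair than in the other E10.5 libraries, and their part in these rises was not tested.

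**Figure D4:**
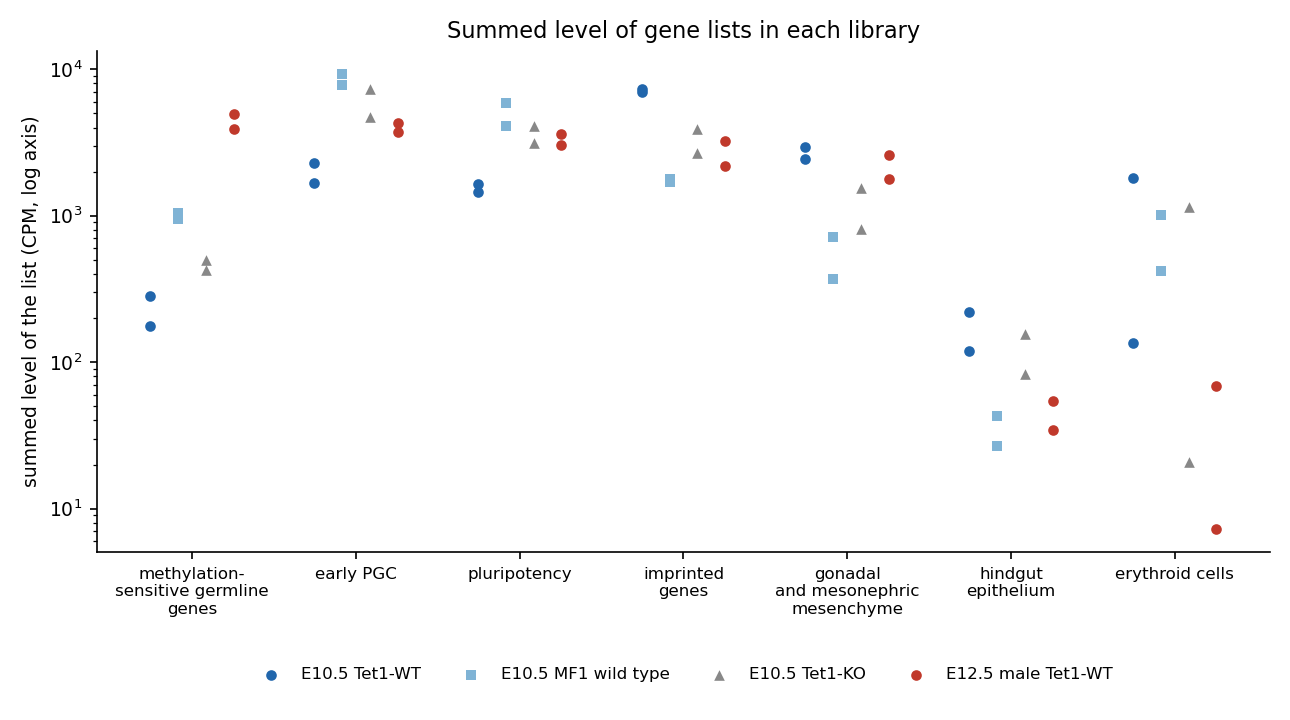
Summed level of 7 gene lists in each library, in CPM on a log axis, for E10.5 Tet1-WT (dark blue), E10.5 MF1 wild type (light blue squares), E10.5 Tet1-KO (grey triangles) and E12.5 male Tet1-WT (red), with 2 libraries each. The germline sum is highest at E12.5 (3900 and 4925 CPM), whereas the early PGC sum is lowest and the imprinted sum highest in the E10.5 Tet1-WT pair (2275 and 1670 CPM, and 7292 and 7016 CPM).

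Genes of migration, adhesion and survival moved in both directions, with 23.8% called higher and 19% lower, against 6.4% and 3.05% of all genes. Of 21, 5 were called higher and 4 lower, and 3 of these 9 calls stayed without each library in turn. Kitl, the ligand of Kit that surrounding somatic cells make, fell from 135 and 117 CPM to at most 21.5 CPM in both E12.5 libraries (log2 change −2.81 ± 0.43 SE, edgeR adjusted p = 0.00075). Epcam, an epithelial adhesion molecule, rose from 22.5 and 16.6 CPM to 61 and 68.9 CPM (log2 change 1.73 ± 0.28 SE, edgeR adjusted p = 0.00111), and Cd9, a tetraspanin of the germ cell surface, rose from 32.8 and 25.7 CPM to 61.7 and 72.6 CPM (log2 change 1.20 ± 0.21 SE, edgeR adjusted p = 0.0018). Cxcr4, the chemokine receptor that guides migration, was at 5.25 and 3.19 CPM and then at 7.26 and 7.33 CPM and was not called. Epcam and Cd9 had the opposite sign against the MF1 libraries, with log2 changes of −0.42 and −0.51. Kitl, at 35.6 and 2.4 CPM in those libraries, was not called against them (log2 change −0.10, edgeR adjusted p = 0.953).

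A retinoic acid binding protein and a target of BMP signalling fell. Of 27 genes of the retinoic acid, BMP and WNT list 26 were tested, 1 was called higher and 8 lower, with a median log2 change of −0.94. Crabp2, which carries retinoic acid to its nuclear receptors, fell from 89.9 and 175 CPM to 13.6 and 13.8 CPM (log2 change −3.27 ± 0.54 SE, edgeR adjusted p = 0.0013). The libraries of the stages did not overlap for this gene, as for every called gene. Msx1, a homeobox gene induced by BMP, fell from 13.6 and 8.86 CPM to 2.06 and 1.13 CPM (log2 change −2.81 ± 0.61 SE, edgeR adjusted p = 0.00832), a call lost without E12.5 male replicate 2 (0.121). Zglp1, a zinc finger factor of the oogenic programme, rose from 2.54 and 1.03 CPM to 14.2 and 18 CPM (log2 change 3.17 ± 0.40 SE, edgeR adjusted p = 0.000164). The number of lower calls was 2 without E12.5 male replicate 2, 4 without either E10.5 library and 7 without E12.5 male replicate 1. With MF1 as the reference 3 genes of the list were called higher and 2 lower, with a median log2 change of 0.04. Crabp2 (log2 change −0.97, edgeR adjusted p = 0.358), Msx1 (−1.65, 0.277) and Zglp1 (0.09, 0.961) were not called there.

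On the oocyte list, 14 genes of which 11 were tested, 2 were called higher (18.2%, against 6.4% of all genes) and 0 lower. Sohlh2, a transcription factor of early oocytes and of spermatogonia, rose from 7.91 and 17.7 CPM to 160 and 231 CPM (log2 change 3.93 ± 0.35 SE, edgeR adjusted p = 6.60e-06), and Taf4b, a TFIID subunit of the germline, rose from 6.44 and 1.89 CPM to 22.9 and 22.2 CPM (log2 change 2.44 ± 0.46 SE, edgeR adjusted p = 0.00352). Sohlh1, its partner in later stages, held no read in any of the 4 libraries, and Figla and Gdf9 stayed at 1.88 CPM or below.

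Genes of the DNA methylation machinery moved in both directions. Of 26, 2 were called higher (7.69%) and 3 lower (11.5%), against 6.4% and 3.05% of all genes, with a median log2 change of −0.04 (DESeq2 called 3 and 3, voom 3 and 6, and 7 and 4 had an unadjusted p under 0.05 in edgeR). Of the 5 calls 1 stayed without each library in turn. Uhrf1, the cofactor that brings Dnmt1 to newly copied DNA, fell from 284 and 340 CPM to 137 and 114 CPM (log2 change −1.31 ± 0.29 SE, edgeR adjusted p = 0.00961), a call lost without E10.5 replicate 2 (0.0685) or E12.5 male replicate 2 (0.122). The MF1 libraries held Uhrf1 at 52 and 46.4 CPM, below both E12.5 libraries. Tdg, the glycosylase that excises oxidised forms of methylcytosine, fell from 102 and 112 CPM to 37.8 and 34.3 CPM (log2 change −1.57 ± 0.25 SE, edgeR adjusted p = 0.00104). Tet1 was called higher (log2 change 1.21 ± 0.36 SE, edgeR adjusted p = 0.0489), a call lost without E10.5 replicate 2 (0.341) or E12.5 male replicate 2 (0.42). The de novo methyltransferase Dnmt3b was at 11.1 and 8.97 CPM and then at 7.2 and 7.71 CPM and was not called.

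Of 21 Polycomb and H3K9 methylation genes 3 were called higher and 1 lower, and 1 call stayed without each library in turn. That was Ezh1, the second H3K27 methyltransferase, which rose from 27.5 and 15 CPM to 62.7 and 88.1 CPM (log2 change 1.83 ± 0.30 SE, edgeR adjusted p = 0.00141). Against the MF1 libraries, at 81 and 14.3 CPM, Ezh1 was not called (log2 change 0.63, edgeR adjusted p = 0.419). With that reference 5 genes of the list were called higher and 3 lower, and 0 were called in the same direction against both. In the Tet1 cross 14.3% of the list were called higher and 4.76% lower, against 6.4% and 3.05% of all genes.

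Imprinted genes, expressed from 1 parental copy under control of methylation inherited from egg or sperm, fell in many cases relative to the E10.5 Tet1-WT libraries. Of 32, 1 was called higher and 12 lower, with a median log2 change of −1.32. Both E12.5 libraries lay below both E10.5 libraries in 26 and above them in 2, where 55.3% of all tested genes did not overlap in either direction. Peg3, a zinc finger gene expressed from the paternal copy, fell from 2310 and 2280 CPM to 938 and 754 CPM (log2 change −1.44 ± 0.24 SE, edgeR adjusted p = 0.00133). H19, a maternally expressed noncoding RNA, fell from 540 and 613 CPM to 203 and 100 CPM (log2 change −1.93 ± 0.31 SE, edgeR adjusted p = 0.00109). Phlda2, a maternally expressed growth restrainer best known in placenta, fell from 70.5 and 55.3 CPM to 5.99 and 5.7 CPM (log2 change −3.43 ± 0.55 SE, edgeR adjusted p = 0.00104). Each of the 3 was lower in both E12.5 libraries than in both E10.5 libraries, as was every gene called lower.

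Asb4 fell as well (log2 change −2.02 ± 0.34 SE, edgeR adjusted p = 0.00168), and Usp29, the neighbour of Peg3, rose from 1.41 and 2.38 CPM to 10.2 and 22.4 CPM (log2 change 3.10 ± 0.47 SE, edgeR adjusted p = 0.000683). Reads of Peg3 and Usp29, which start beside each other on opposite strands, could be shared, since the strand setting of the counting is not given. Mest, a hydrolase-like gene of mesoderm, was called lower (log2 change −2.04 ± 0.41 SE, edgeR adjusted p = 0.00502) except without E12.5 male replicate 2 (0.0913). Against the E10.5 MF1 libraries both Asb4 (log2 change 2.94, edgeR adjusted p = 0.000252) and Mest (2.15, 0.00423) were called higher. The count of imprinted genes called lower was 10 without E10.5 replicate 1, 8 without E10.5 replicate 2, 13 without E12.5 male replicate 1 and 4 without E12.5 male replicate 2.

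Against the E10.5 MF1 libraries the imprinted list went the other way, with 10 called higher, 1 lower and a median log2 change of 1.13, and 5 of the 12 genes lower in the Tet1 cross were higher in that comparison. H19 was at 36.6 and 68.6 CPM in MF1, below both E12.5 libraries, while Phlda2 was at 118 and 380 CPM and was lower at E12.5 against both references. The summed level of the list was 7292 and 7016 CPM in the E10.5 Tet1-WT libraries, 2690 and 3938 CPM in E10.5 Tet1-KO, 1775 and 1688 CPM in MF1, and 3260 and 2172 CPM at E12.5. Many imprinted genes are also abundant in mesenchyme. The mesenchyme list summed to 2449 and 2957 CPM in E10.5 Tet1-WT, 815.8 and 1548 CPM in E10.5 Tet1-KO, 711.1 and 372.3 CPM in MF1 and 2606 and 1770 CPM at E12.5, and its part in the imprinted result was not tested.

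Several genes of glucose use fell. Of 22 glucose uptake and glycolysis genes 7 were called lower and 2 higher, with a median log2 change of −0.51. Ldha, which turns pyruvate into lactate, fell from 942 and 812 CPM to 237 and 135 CPM (log2 change −2.24 ± 0.22 SE, edgeR adjusted p = 1.78e-05). Eno1, the general enolase, fell from 2650 and 2030 CPM to 1080 and 1050 CPM (log2 change −1.14 ± 0.21 SE, edgeR adjusted p = 0.00276). Hk1, a hexokinase at the entry of the pathway, rose from 28.1 and 28.5 CPM to 82.8 and 119 CPM (log2 change 1.84 ± 0.34 SE, edgeR adjusted p = 0.00327). Against the MF1 libraries 10 of 22 were called lower and 1 higher (median log2 change −0.71), with 5 called lower against both references, and Ldha at a log2 change of −1.85. Lower calls in the Tet1 cross numbered 3 to 5 when single libraries were left out, the fewest without E12.5 male replicate 2.

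Few cell cycle genes were called. Of 27 genes of mitosis and DNA replication 1 was called higher and 0 lower, with a median log2 change of 0.04 (1 and 2 in DESeq2 and in voom, and 2 and 3 at an unadjusted p under 0.05 in edgeR). Of 26 G1 regulators 1 was called higher (3.85%) and 3 lower (11.5%), against 6.4% and 3.05% of all genes. The difference between the lists was not tested. Cdk4, the kinase partner of D-type cyclins, fell from 1160 and 1320 CPM to 645 and 605 CPM (log2 change −0.99 ± 0.14 SE, edgeR adjusted p = 0.000452), and Cdkn1a, the p21 inhibitor, rose from 5.54 and 6.1 CPM to 17.6 and 28.2 CPM (log2 change 1.97 ± 0.30 SE, edgeR adjusted p = 0.000683). Ccnd1, a D-type cyclin, fell from 36.3 and 36.5 CPM to 7.26 and 3.2 CPM (log2 change −2.80 ± 0.58 SE, edgeR adjusted p = 0.00642), a call lost without E12.5 male replicate 2 (0.106). Cdk4 kept its sign against the MF1 libraries (−0.55), whereas Ccnd1 (0.23) and Cdkn1a (−0.34) did not.

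Of 16 genes of the BCL2 family and the p53 response 2 were called higher and 1 lower, and no call stayed without each library in turn. Pmaip1, the cell death activator also called Noxa, was at 1.86 and 1.78 CPM at E10.5 and at 41.3 and 63 CPM at E12.5 (log2 change 4.83 ± 0.97 SE, edgeR adjusted p = 0.00627), and its call was lost without E10.5 replicate 1 (0.0523) or E10.5 replicate 2 (0.0635). Of 12 genes of the X-linked Rhox homeobox cluster 9 were tested, 4 were called higher and 0 lower. Rhox1 rose from 0.282 and 0.81 CPM to 14 and 13.5 CPM (log2 change 4.63 ± 0.40 SE, edgeR adjusted p = 4.09e-06), and Rhox2a from 5.42 and 2.86 CPM to 16.2 and 20.2 CPM (log2 change 2.13 ± 0.33 SE, edgeR adjusted p = 0.000846). The count of Rhox calls was 2 without E10.5 replicate 1 or E12.5 male replicate 2. With MF1 as the reference 2 were called higher and 2 lower, with a median log2 change of 0.00, and Rhox2a was not called (log2 change 0.11, edgeR adjusted p = 0.878). The summed level of the cluster was 330.6 and 350.3 CPM in E10.5 Tet1-WT, 1502 and 2515 CPM in MF1 and 440.6 and 512.1 CPM at E12.5. Rhox2a is 1 of several near-identical copies, so its count may hold or lack reads of others.

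Markers of neighbouring cell types were present at both stages in differing amounts. The list of testis supporting cells summed to 157.2 and 128.4 CPM at E10.5 and to 200.3 and 167.6 CPM at E12.5, with 3 of 15 tested genes called higher. Its members Sry, Dhh and Amh were at most 1.51 CPM at E12.5, so nearly all of that sum came from other members. Among those were Dmrt1 (58 and 60.8 CPM) and Cst9 (19.9 and 22.4 CPM). Amh, with no read at E10.5, was among the genes called (edgeR adjusted p = 0.048), a call lost whichever of the 4 libraries was left out. Ptgds, which makes prostaglandin D2, went from 0 to 6.23 and 8.15 CPM (edgeR adjusted p = 0.00882), a call lost without E10.5 replicate 1 (0.0511) or E10.5 replicate 2 (0.0632). Cst9, a cystatin of supporting cells, was at 7.23 and 2 CPM and then at 19.9 and 22.4 CPM without a call (edgeR adjusted p = 0.0572), and was at 0.0589 and 0 CPM in E12.5 females, a called log2 difference between the sexes of 9.23 (edgeR adjusted p = 0.0018, at most 0.028 without any 1 library). Both E12.5 libraries lay above both E10.5 libraries in 6 of the 15 tested members and below them in 3. Among all tested genes 55.3% did not overlap in either direction, so these counts do not set the list apart. The part of these cells in the other rises was not tested. Dmrt1, which is also a germ cell gene, was the member whose call stayed without each library, rising from 9.89 and 6.1 CPM to 58 and 60.8 CPM (log2 change 2.89 ± 0.39 SE, edgeR adjusted p = 0.000289). Of 6 tested ovary supporting genes 0 were called in edgeR or DESeq2 (1 lower in voom, and 1 at an unadjusted p under 0.05 in edgeR), and Foxl2 was at 0 in all 4 libraries. Of 7 tested steroidogenic genes 1 was called higher (Ren1) and Insl3 was at 0 in all 4 libraries. The mesenchyme list had 1 of 17 called higher (Dcn) and a median log2 change of −0.49, while voom called 3 higher and 6 lower. The calls of Ren1 and Dcn were lost whichever of the 4 libraries was left out. Against the MF1 libraries 11 of 17 mesenchyme genes and 8 of 15 testis supporting genes were called higher and 0 lower, with median log2 changes of 4.21 and 6.46. Of all 18008 genes in that fit 1589 were called higher and 1308 lower.

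Genes of stress and cell dissociation had a higher summed level at E12.5. The list summed to 186.2 and 335.3 CPM at E10.5 and to 744.1 and 404.2 CPM at E12.5, with 1 of 14 called higher, 0 lower and a median log2 change of 1.07 (DESeq2 called 4 and 0, voom 5 and 0, and 5 and 0 had an unadjusted p under 0.05 in edgeR). Btg2, an antiproliferative immediate early gene, rose from 13.8 and 21.8 CPM to 81.1 and 56.2 CPM (edgeR adjusted p = 0.00372, at most 0.0479 without any 1 library). Called against the MF1 libraries were 6 of 14, each higher. The part of this list in other rises was not tested.

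Erythroid genes summed to 135.3 and 1804 CPM at E10.5 and to 68.3 and 7.207 CPM at E12.5. The embryonic globins Hba-x (log2 change −5.98 ± 1.52 SE, edgeR adjusted p = 0.0209) and Hbb-bh1 (log2 change −7.56 ± 1.76 SE, edgeR adjusted p = 0.0131) were called lower, and both calls were lost without E10.5 replicate 2 (0.244 and 0.144) or E12.5 male replicate 2 (0.198 and 0.128), and that of Hba-x also without E12.5 male replicate 1 (0.0673). The hindgut list summed to 218.6 and 118.7 CPM and then to 54.26 and 34.34 CPM, with its defining markers Cdx1, Cdx2, Foxa2 and Shh at most 2.6 CPM in any of the 4 libraries. Of 7 tested hindgut genes 2 (28.6%) were called lower, the keratins of simple epithelia Krt8 (45.9 and 24 CPM, then 7.62 and 4.51 CPM, edgeR adjusted p = 0.0254) and Krt18 (128 and 72.2 CPM, then 29 and 19.9 CPM, edgeR adjusted p = 0.016). Both calls were lost without E10.5 replicate 1 (0.189 and 0.133), E12.5 male replicate 1 (0.0792 and 0.0512) or E12.5 male replicate 2 (0.25 and 0.18), and neither gene was called against the MF1 libraries (0.815 and 0.481). The part of these cell types in the genes called lower was not tested.

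Beside E12.5 female Tet1-WT PGCs of the same cross, the male cells differed in 101 of 17567 genes (0.575%), 43 (0.245%) higher and 58 (0.33%) lower in males, by edgeR's quasi-likelihood test of the difference. The male and female libraries share the E10.5 reference, so male and female levels were compared directly. Lefty1 was at 87.4 and 103 CPM in males and at 2.59 and 0.21 CPM in females, a log2 difference of 6.11 (edgeR adjusted p = 0.0052, at most 0.0483 without any 1 library). Lefty2 was at 166 and 187 CPM in males and at 4.36 and 1.42 CPM in females, a log2 difference of 5.95 (edgeR adjusted p = 0.0047), which lost its call without female replicate 2 (0.0633). In both genes the female libraries were at 4.36 CPM or below, as were the E10.5 Tet1-WT libraries. Tdgf1 was higher in males by a log2 difference of 2.81 (edgeR adjusted p = 0.0495), which did not hold whichever of the 4 libraries was left out (0.0505 to 0.315). Nodal was at 2.47 and 1.42 CPM in females, below both male libraries, with a log2 difference of 3.79 that was not called (edgeR adjusted p = 0.158).

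Zglp1 was at 14.2 and 18 CPM in males and at 94.3 and 76.5 CPM in females, a log2 difference of −2.41 (edgeR adjusted p = 0.0052), lost without male replicate 1 (0.117). Stra8 was at 31.3 and 6.94 CPM in females against at most 0.726 CPM in males (edgeR adjusted p = 0.00856), lost without male replicate 2 (0.106). Phlda2, which fell in males, was at 250 and 431 CPM in females, a log2 difference of −5.86 (edgeR adjusted p = 0.000232, at most 0.0099 without any 1 library). For Phlda2 the females lay above the E10.5 Tet1-WT libraries and the males below them. The other E10.5 libraries, at 311 and 180 CPM in Tet1-KO and 118 and 380 CPM in MF1, held the female value of 250 CPM within their range. Among the 29 germ cell genes of the promoter methylation list 0 were higher and 1 lower in males than in females by this test (median log2 difference −0.43), and among the 37 meiotic prophase genes 0 and 3 (median −0.93). Dazl was at 2070 and 1160 CPM in females, a log2 difference of −0.40 that was not called (edgeR adjusted p = 0.767). Hormad2, a protein of meiotic chromosome axes, was at 16.1 and 15.2 CPM in males and at 55.6 and 41.1 CPM in females, a log2 difference of −1.63 (edgeR adjusted p = 0.00169, at most 0.0356 without any 1 library). Smc1b was at 455 and 461 CPM in females, a log2 difference of −1.24 (edgeR adjusted p = 0.0349), and that call was lost without female replicate 2 (0.145), male replicate 1 (0.342) or male replicate 2 (0.121). The number of genes called between the sexes was 360 without female replicate 1, 46 without female replicate 2, 23 without male replicate 1 and 37 without male replicate 2.

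**Figure D5:**
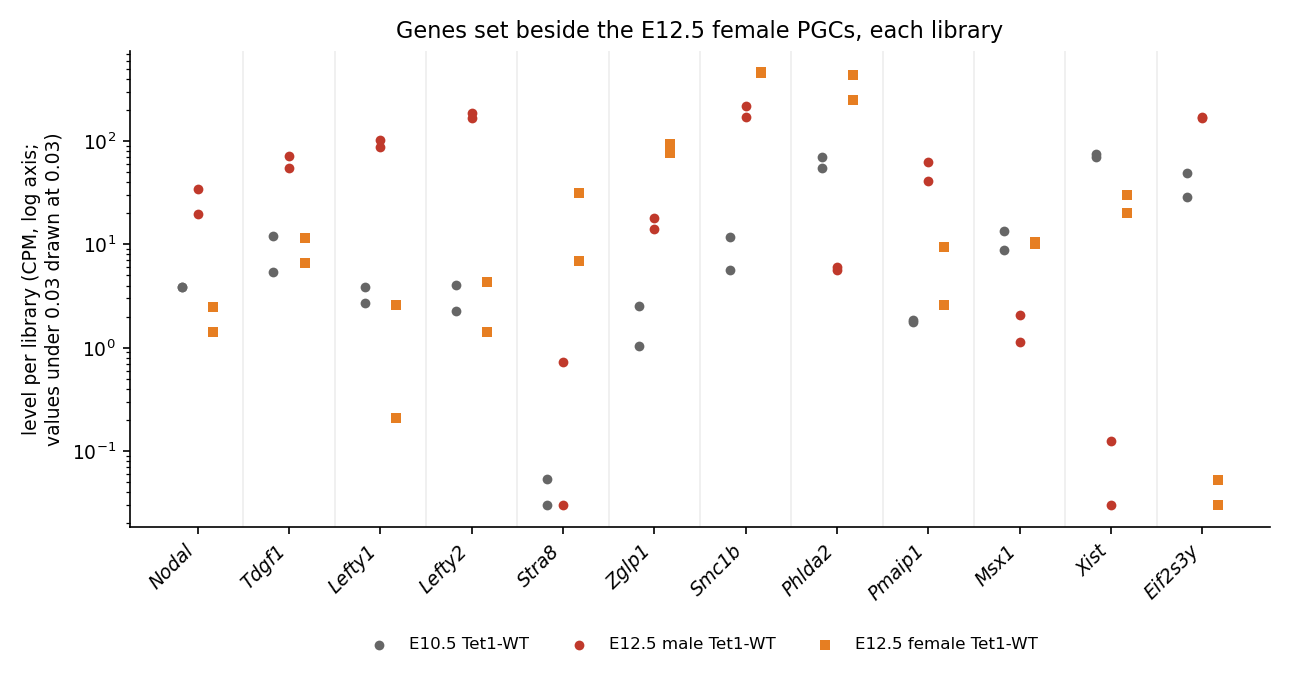
Levels of 12 genes in each library, in CPM on a log axis, for E10.5 Tet1-WT (grey), E12.5 male Tet1-WT (red) and E12.5 female Tet1-WT (orange squares), with 2 libraries each and values under 0.03 CPM drawn at 0.03. Lefty1 and Lefty2 reach 87.4 CPM or more in the male libraries alone, Stra8 and Zglp1 are highest in the female libraries, and Phlda2 is at 5.99 and 5.7 CPM in males and 250 and 431 CPM in females.

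The change from E10.5 to E12.5 in males differed between Tet1-WT and Tet1-KO in 42 of 17567 genes (0.239%), 13 (0.074%) with a more positive and 29 (0.165%) with a more negative change in Tet1-WT, by edgeR's quasi-likelihood test of the interaction. In each of the 5 genes with the smallest p the E10.5 libraries of the genotypes did not overlap. That p uses these same E10.5 values, and the share of all genes separated in this way was not counted. Esrp1, a splicing regulator of epithelial cells, was at 31.2 and 24.8 CPM at E10.5 and at 90.1 and 105 CPM at E12.5 in Tet1-WT, and at 107 and 109 CPM and then at 102 and 102 CPM in Tet1-KO (log2 difference of the changes 1.89, edgeR adjusted p = 0.00549, at most 0.0397 without any 1 library). The X-linked gene 8030474K03Rik was at 1.13 and 1.78 CPM and then at 28.8 and 32.5 CPM in Tet1-WT, and at 15.3 and 18.2 CPM and then at 17.4 and 27.3 CPM in Tet1-KO (log2 difference 3.97, edgeR adjusted p = 0.00417, at most 0.0136 without any 1 library). In both genes the E10.5 Tet1-WT libraries were the lowest and the other 3 groups were alike in order of magnitude.

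Of the germline genes, Stag3 was at 67.6 and 59.7 CPM and then at 161 and 167 CPM in Tet1-KO, a smaller change than in Tet1-WT by a log2 difference of 1.70 (edgeR adjusted p = 0.0232). That call was lost without E10.5 Tet1-WT replicate 1 (0.0519), without E12.5 male Tet1-WT replicate 2 (0.0891) or without either of the E12.5 male Tet1-KO libraries (0.0943 and 0.0787). Dazl, at 14.3 and 21.9 CPM at E10.5 and at 968 and 1030 CPM in E12.5 males of the Tet1-KO, had a log2 difference of 0.92 that was not called (edgeR adjusted p = 0.564). The number of genes called was 67 without E10.5 Tet1-WT replicate 1, 242 and 251 without the first and the second E10.5 Tet1-KO library, 5 and 10 without the first and the second E12.5 male Tet1-WT library, and 12 and 10 without either E12.5 male Tet1-KO library. The E10.5 Tet1-WT libraries also stood apart from the MF1 libraries in the early PGC and imprinted lists, and the part of that in this difference was not tested.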

How the data were processed

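RNA-seq was measured in sorted mouse PGCs, 22 libraries in all. The authors deposited raw counts per gene, as whole numbers with no normalization, in a table of 20 libraries of the Tet1 cross (10 groups of 2) and a table of the 2 MF1 libraries. Per the submitters' processing notes, Trimmomatic, TopHat2 2.0.2, Bowtie 0.12.8 and HTSeq 0.5.3p9 were used with genome build mm9. Strand setting and treatment of reads that match several places are not given in the sources used here. Libraries were grouped by their labels. The E12.5 and E14.5 Tet1-KO columns carried 1 name for both libraries of a group and were used as unnumbered libraries of their group.

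The tests used edgeR 4.0.16 under R 4.3.3 (filterByExpr, minimum count 10 and minimum total 15, TMM scaling, robust quasi-likelihood fit of all 10 groups with 10 residual degrees of freedom, prior count 0.125), which tested 17567 of 37991 genes. The common biological coefficient of variation was 0.46. The tests were E12.5 male against E10.5 Tet1-WT, E12.5 male against E12.5 female Tet1-WT, and the difference of the male change between Tet1-WT and Tet1-KO. Calls use a threshold of 0.05 on p-values adjusted by Benjamini-Hochberg over all tested genes. CPM are over the TMM-scaled library. The MF1 libraries were scaled and fitted in a separate fit of all 22. A fold against a group with no read is a bound at 3 counts per library, and such bounds cover counting error only. The code was tested on simulated counts. Symbols and gene types came from GENCODE vM21 and promoters from RefSeq GRCm38.p6, matched by Ensembl identifier or symbol; no coordinate of the count tables was used. Motifs CACGTG and TCCCGC were searched on both strands; they cannot overlap fully, and any overlap would be shown as 1 run of capitals.

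The comparison and the gene lists were chosen with earlier results of these data known. Genes named are Tet1, 24 landmark genes, the 10 largest called rises and falls with libraries apart and a higher mean of at least 5 CPM, up to 4 called members of each list by smallest p (2 by level where none was called), and the 5 with the smallest p in each test of a difference; others named from the lists were chosen after their values were seen, and some genes that the rule names are not reported here. Alternatives were other scalings and filters, DESeq2 1.42.0, limma 3.58.1 voom, smaller sets of libraries, a replicate block, the MF1 reference and each library left out. The number of libraries, 2 a group, and the spread between them limit the precision more than the depth of 15261276 to 18375243 counted reads does. Figures were drawn with Python 3.11.15 and matplotlib 3.10.9.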

Additional observations from a re-analysis of the deposited data

Results flagged for a closer look

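Genes are given here because their level differed between the sexes at E12.5, or because their change from E10.5 to E12.5 in males differed between the Tet1 genotypes, by edgeR's quasi-likelihood test of that difference. Fitted log2 differences against groups with few or no reads depend on the prior count and are no bounds.

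Between E12.5 male and female Tet1-WT PGCs, the log2 difference (male minus female) was 6.11 for Lefty1, 5.95 for Lefty2 and 2.81 for Tdgf1, all genes of Nodal signalling. It was −5.67 for Stra8, −2.41 for Zglp1, −1.24 for Smc1b and −5.86 for Phlda2. For genes of the sex chromosomes it was −8.51 for Xist and 12.22, 14.32, 13.37 and 8.36 for the Y-linked Eif2s3y, Uba1y, Ddx3y and Uty. The calls of Lefty1, Phlda2 and the 4 Y-linked genes held with each of the 4 libraries left out in turn. Xist lost its call without male replicate 1 (adjusted p = 0.108 in edgeR).

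In the test of the difference between Tet1-WT and Tet1-KO, the log2 difference of the changes was 7.51 for Tuba3b, 1.70 for Stag3, 3.97 for 8030474K03Rik, 7.97 for Trib3, 1.89 for Esrp1, −7.22 for Gab3 and −4.27 for Rubcn. Trib3, a pseudokinase of stress responses, was at 0 and 0.054 CPM in E10.5 Tet1-WT and at 3.43 and 5.31 CPM in E10.5 Tet1-KO. Gab3 was at 3.84 and 1.3 CPM in E10.5 Tet1-WT and at 0 and 0.0548 CPM in E10.5 Tet1-KO. Rubcn, an inhibitor of autophagy, was at 19.5 and 20.5 CPM and at 0.274 and 0.986 CPM in the same groups, and lost its call without E12.5 male Tet1-WT replicate 1 (adjusted p = 0.0655 in edgeR). Tuba3b lost its call in 7 of the omissions, with an edgeR adjusted p of up to 0.118.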

How the results depend on the processing

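The count of 1660 called genes was within 1.5 times of its value with DESeq2 size factors (1619), library totals (1713), no filter (2309), a 1 CPM filter (1684), the 4 libraries alone (1928) and the 10 Tet1-WT libraries (1528). DESeq2 called 2574 genes (1036 lower) and voom 2607 (1253 lower), and the 4 libraries alone called 870 lower, so the share of calls that were higher went from 67.7% to 59.8%, 51.9% and 54.9%. Leaving out 1 library gave 486 to 1078 calls, 401 to 824 higher (655 without E10.5 replicate 1) and 85 to 323 lower. Replicate numbers did not pair the libraries: same-numbered libraries deviated with a correlation of −0.0119 and came from different embryos. The replicate block, fitted on the 12 libraries with a number instead of the 20 planned, gave 787 calls (545 higher, 242 lower), against 925 (637 and 288) in the same 12 libraries without a block, an alternative chosen after seeing the data. For the sexes the block gave 20 and those 12 libraries 22, where the main count was 101; the 10 Tet1-WT libraries gave 56, no filter 583, DESeq2 753, and leaving out 1 library 23 to 360. For Tet1-WT against Tet1-KO the main count was 42, no filter gave 615, DESeq2 482, and leaving out 1 library 5 to 251. No paired analysis was possible for this genotype difference because the E12.5 Tet1-KO columns do not tell the replicates apart.

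With the MF1 libraries as the E10.5 reference 2897 of 18008 genes were called (1589 higher and 1308 lower). Of these 427 were also called in the Tet1 cross, 320 of them in the same direction. Of 112 genes named by the rule 29 changed sign there and were called against at least 1 of the references. Log2 changes became negative for Nanos3 (−1.35), Pou5f1 (−1.19), Sox2 (−1.23), Nanog (−1.44), Dppa3 (−0.67), Kit (−0.69), Dppa5a (−0.36), Tcl1 (−0.17), Dppa4 (−0.14), Zfp42 (−0.25), Dnd1 (−0.22), Prdm14 (−0.81), Epcam (−0.42), Cd9 (−0.51), Taf4b (−0.04), Parp1 (−0.40), L3mbtl2 (−0.12), Bub1 (−0.03), Cdkn1a (−0.34) and Esrp1 (−0.36). They became positive for Uhrf1 (1.32), H19 (1.50), Tbx5 (2.69), Hand1 (5.40), Rac1 (0.01), Peg3 (0.10), Ccnd1 (0.23), Ccnd2 (1.70) and Krt18 (0.64). Under the other alternatives no named gene changed sign while called in the main fit or in the alternative. Sign changes of genes called in neither were not counted. Calls of named genes were also lost when 1 library was left out. Under the other scalings, filters and tools and the fits of 4 or 10 libraries 1 to 8 were lost. Under the block 22 were lost, and 15 in the 12 libraries. Against MF1 25 lost their call and kept their sign. The 29 that changed sign are not among these 25. Several of them, such as Dppa3 (edgeR adjusted p = 0.132) and Peg3 (0.84), were called in the Tet1 cross and not against MF1. The causes of these shifts were not tested. Genes near 0 CPM rest on few reads, which limits what was detectable there.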

Other observations

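Of 607 tested protein-coding X genes 55 were called higher (9.06%) and 48 lower (7.91%), with a median log2 change of −0.00, and of 14414 autosomal ones 1016 were called higher (7.05%) and 472 lower (3.27%). The difference of these shares was not tested. Against the MF1 libraries 89 of 609 X genes were called higher and 48 lower, and of 14539 autosomal ones 1366 and 1021. The E10.5 libraries held both Xist and Y-linked RNA and the E12.5 libraries were from males, so stage and sex cannot be told apart for X-linked genes. Against E12.5 female PGCs, 19 of 725 tested X genes of any type were called lower in males and 0 higher, with a median log2 difference of −0.28, while autosomal genes had 39 lower, 38 higher and a median of 0.00.

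Hox genes, which pattern the body axis in somatic tissue, were lower in both E12.5 libraries than in both E10.5 libraries in 27 of 34 tested genes. Of all tested genes 55.3% did not overlap between the stages, in either direction. The median log2 change of the Hox genes was −1.71, yet 0 were called in edgeR, where 5 had an unadjusted p under 0.05. DESeq2 called 2 of them lower and limma's voom 17. Their summed level was 336.9 and 453 CPM in E10.5 Tet1-WT, 129.3 and 192.1 CPM in E10.5 Tet1-KO, 23.4 and 51.94 CPM in E10.5 MF1, and 168.7 and 100.3 CPM at E12.5. The direction turned against the MF1 libraries, with 5 called higher, 0 lower and a median log2 change of 2.51. Of 76 cytosolic ribosomal protein genes and 21 tested mitochondrial genes 0 were called in edgeR, with median log2 changes of −0.01 and 0.06, and 2 of each had an unadjusted p under 0.05. DESeq2 called 0 and 1 of them, and voom 1 and 0. With MF1 as the reference 62 of the 76 ribosomal genes were called lower and 0 higher (median −1.10), and 6 of the 21 mitochondrial genes higher and 0 lower (median 0.39). Of 858 tested long noncoding RNA genes 15 were called higher and 4 lower, and of 39 tested collagen genes 0 were called higher and 3 lower (Col2a1, Col4a1 and Col18a1), none of which stayed called with each library left out in turn. The 3 lower calls were 7.69% of the tested collagen genes, against 3.05% of all genes. Of 40 collagen genes tested against the MF1 libraries 13 were called higher and 1 lower (median 2.71).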
